A study of Homo sapiens with 2 samples.

Results

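The vesicle coats COPI and COPII, the Sec61 translocon with its SEC62 and SEC63 partners, the SEC22 SNARE family and the exocyst were described in GFP-SAS cells, a green fluorescent protein line of the human tongue squamous carcinoma line SAS. The members were all genes on the array whose single annotated symbol belongs to one of these families (the COP coat symbols, SEC13, SEC16, SEC22, SEC23, SEC24, SEC31, SEC61, SEC62, SEC63, SAR1, EXOC and ARCN1). Pseudogenes were left out. The rule reads symbols and no measured value. It gave 44 of 18239 genes and 126 of 49386 probe sets, a probe set being a group of probes that reports on one transcript or a few.

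The comparison asks which transcripts differ when miR-361-3p, a microRNA, is targeted. Anti-miR cells were held for 24 h with an antisense oligonucleotide of LNA and DNA bases, directed at miR-361-3p, at 25 nM, and control cells for the same time with a non-target oligonucleotide at 25 nM. Both groups were the same GFP-labelled line, so the GFP label was shared, and each was hybridised from 10 ng of RNA carrying a biotin label. There was 1 array per group, so the error between cultures is unknown and there are no p-values. Errors below are the SD over the probe sets of a gene within this pair of arrays, and they hold no variation between cultures. In bulk RNA, fewer cells of a type and less RNA per cell cannot be told apart.

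Proteins bound for secretion or for membranes enter the endoplasmic reticulum (ER) through the Sec61 channel. COPII coats, started by the small GTPase SAR1, carry them out of the ER, and COPI coats return escaped proteins and receptors from the Golgi. SNARE proteins such as SEC22B fuse these vesicles with their target, and the exocyst tethers later vesicles to the plasma membrane, where secretory cells and epithelia deliver adhesion and polarity proteins. The oligonucleotide was directed at the RNA below, shown because it is what the treatment was aimed at. Capitals mark its seed, bases 2 to 8, the part that pairs with target transcripts, and the sequence is that of RefSeq (GRCh38.p14, chrX:85903641-85903663, minus strand). Seed sites in the transcripts of the members were not analysed here.
hsa-miR-361-3p: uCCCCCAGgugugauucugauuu

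The cells carried the epithelial label in their RNA. Of 11 epithelial and squamous markers 9 had a probe set with their single symbol, and 8 had a probe set above the filter used here, with gene levels from 8.42 to 11.6 in anti-miR cells and from 8.82 to 11.8 in control cells (log2 RMA values). The ninth had no probe set above the filter. Over all probe sets, the lowest of the 9 was at 3.87 in anti-miR cells and 3.63 in control cells. Of the 8, 7 lay below 0, with a median difference of -0.17 and CDH1, the adherens junction cadherin, lowest at -0.54. Their part in the results was not tested. The 7 fibroblast markers had no probe set above the filter, at 2.36 to 3.72 in anti-miR cells and 2.30 to 3.62 in control cells. Over all probe sets, the 5 leukocyte markers lay at 2.42 to 6.41 in anti-miR cells and 2.44 to 6.25 in control cells. The 5 endothelial ones lay at 3.15 to 4.07 in anti-miR cells and 3.04 to 3.89 in control cells. Of these, CD68, PECAM1 and VWF had probe sets above the filter. The leukocyte marker CD68 had 6.41 in anti-miR cells and 6.25 in control cells. The endothelial marker PECAM1 had 5.35 in anti-miR cells and 5.03 in control cells, and VWF 5.11 in anti-miR cells and 4.69 in control cells. PECAM1 and VWF each rest on 1 probe set above the filter. Over all their probe sets both were within the endothelial range above, which lies below the array medians. The part of these markers in the results was not tested. No marker was listed at 0. The gene level used throughout is the mean log2 value over probe sets that reached the median of their array (4.64 anti-miR, 4.63 control) on at least 1 array, and a difference is the anti-miR level minus the control level. The median of all 11272 genes with such a probe set was a difference of 0.13, and 37.7% of them lay below 0. The poly-A controls, RNAs spiked in ahead of labelling, had a mean difference of 0.32 over 12 probe sets, and their part in the differences below was not tested.

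Of the 44 members, 40 had a probe set above the filter. None of the 40 passed 1.5-fold upwards (a log2 difference of 0.58 in anti-miR cells), where 8.23% of all genes did. At least 1.5-fold lower were 5 of 40, SEC22B, SEC31A, EXOC4, EXOC6B and EXOC2, which is 12.5% against 14.2% of all genes. The share of lower members was thus close to that of all genes. With differences centred on the median gene, 10 of 40 members (25.0%) were lower, against 17.3% of all genes, and no member was higher, against 4.43%. At 2-fold, SEC22B and SEC31A were lower, against 6.98% of all genes, and no member was higher, against 1.23%. The median member differed by -0.10, and 23 of 40 lay below 0. Of the 29 members with at least 2 retained probe sets, 26 had all of them in 1 direction, against 79.1% of such genes overall.

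**Figure D1:**
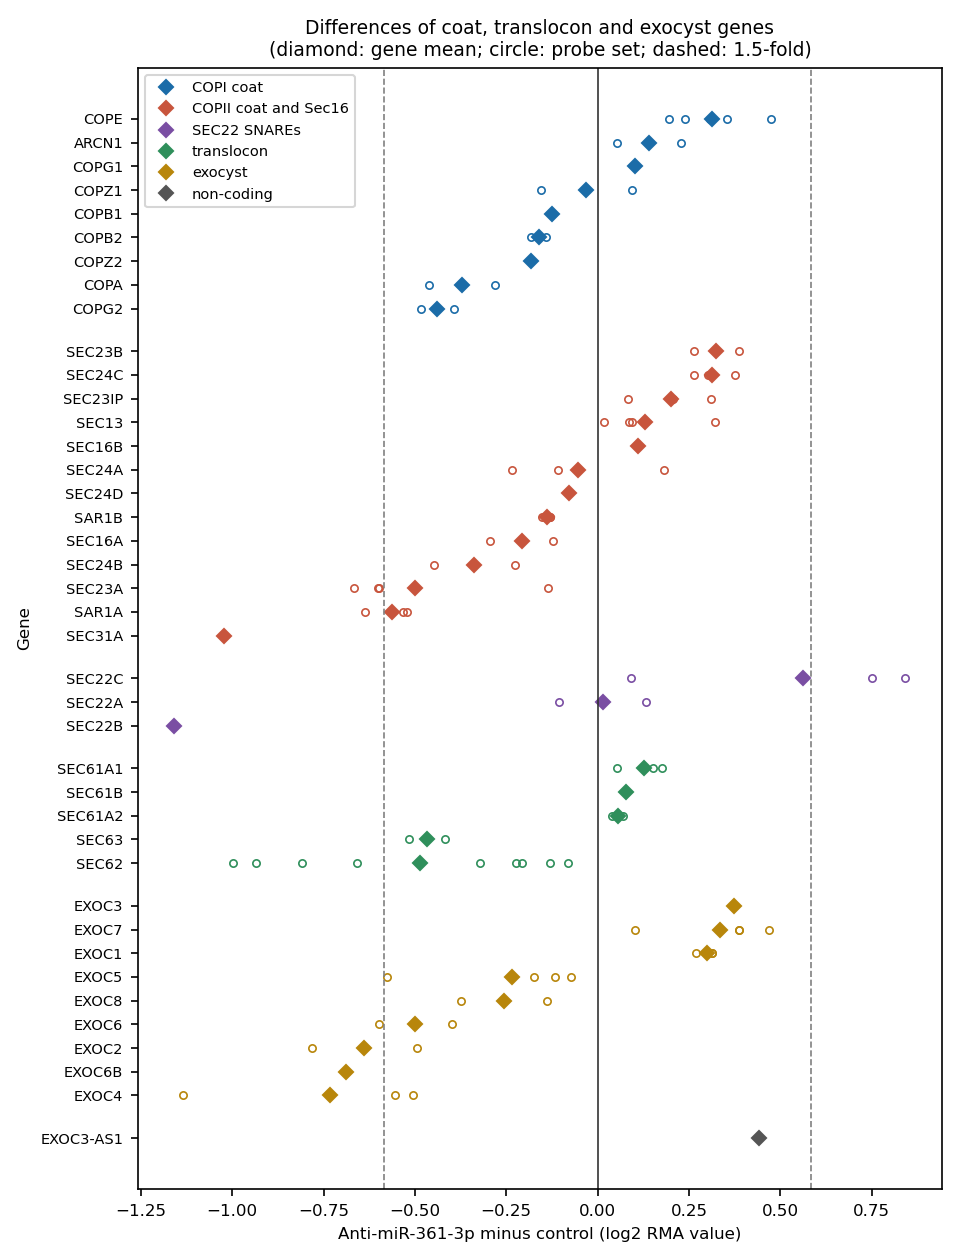
Anti-miR minus control difference on the log2 scale (x axis) for each of the 40 measured members (y axis), grouped by complex; diamonds are gene means, open circles the retained probe sets, and dashed lines 1.5-fold. SEC22B (-1.16) and SEC31A (-1.02) lie farthest to the left, and no gene mean passes the right-hand line.

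The COPI coat is built of an inner part (the beta, gamma, delta and zeta subunits) and an outer part (alpha, beta prime and epsilon). All 9 COPI genes were measured and all lay within 1.5-fold, as did 8742 of all 11272 genes. They ranged from -0.44 to 0.31, with a median of -0.12, against 0.13 for all genes. COPA, the alpha subunit of the outer layer, had levels of 7.05 in anti-miR cells and 7.42 in control cells, a difference of -0.37 ± 0.13 (SD over 2 probe sets). COPB2, the beta prime subunit, had 7.02 in anti-miR cells and 7.18 in control cells. COPE, the epsilon subunit that pairs with COPA, went the other way, with 7.31 in anti-miR cells and 6.99 in control cells. Its 5 probe sets all lay above 0, between 0.19 and 0.47. The outer layer thus held values on both sides of 0.

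Among the inner subunits, COPB1 (beta) had 8.99 in anti-miR cells and 9.11 in control cells, and ARCN1 (delta) 7.85 in anti-miR cells and 7.71 in control cells. The gamma subunit has alternative genes. COPG1 had 8.12 in anti-miR cells and 8.02 in control cells (1 probe set), while COPG2 had 5.67 in anti-miR cells and 6.10 in control cells, a difference of -0.44 ± 0.06 (SD over 2 probe sets). The differences of the pair were 0.54 apart on the log2 scale, COPG1 above COPG2, and their probe sets did not overlap. With differences centred on the median gene, COPG1 lay below 0 too. The zeta genes COPZ1 and COPZ2 differed by -0.03 ± 0.18 (SD over 2 probe sets) and -0.18 (1 probe set).

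COPII assembly starts when SAR1 binds GTP. SEC23 and SEC24 then form the inner layer, in which SEC24 selects cargo, and SEC13 and SEC31 the outer cage, on sites organised by SEC16. Of 14 genes 13 were measured, with a median of -0.08 (0.01 with no filter and 0.18 for the 3 genes with plain _at probe sets). SEC31A, the outer cage subunit, had 7.58 in anti-miR cells and 8.60 in control cells, 2.03-fold lower. This was 1 retained probe set, and it lay above every nonspecific control probe set on both arrays. A second, dimmer set of SEC31A had 3.93 in anti-miR cells and 4.62 in control cells, and thus lay below 0 as well. Both of its levels lie below the array medians, so this set is not shown to be above background. SEC13, its partner in the cage, which also serves in the nuclear pore, had 8.91 in anti-miR cells and 8.78 in control cells, a difference close to the median gene. The 5 probe sets of SEC31B, a paralogue of SEC31A, were all below the filter, from 3.41 to 4.44 in anti-miR cells and from 3.23 to 4.19 in control cells.

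The GTPase SAR1A was 1.48-fold lower, just short of the threshold, with 6.95 in anti-miR cells and 7.51 in control cells. Its 3 probe sets lay close together, at -0.56 ± 0.06 (SD). RefSeq lists pseudogenes of SAR1A and of SEC63 too, and whether the probe sets read them was not tested. SAR1B, the paralogue known for chylomicron export in the gut, had 8.34 in anti-miR cells and 8.47 in control cells, with 3 probe sets from -0.15 to -0.13. The SAR1A difference minus that of SAR1B was -0.43, and their probe sets did not overlap.

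SEC23A, which stimulates GTP hydrolysis by SAR1, differed by -0.50 ± 0.25 (SD over 4 probe sets), with 6.65 in anti-miR cells and 7.15 in control cells. Of these sets 3 lay between -0.67 and -0.60, past 1.5-fold, and the dimmest at -0.13. SEC23B, the paralogue mutated in a congenital anaemia, went the other way, with 7.42 in anti-miR cells and 7.09 in control cells, a difference of 0.32 ± 0.09 (SD over 2 probe sets). The SEC23A difference minus that of SEC23B was -0.82, the widest gap of the 8 pairs of close paralogues with values for both genes in COPI, COPII, SEC61 and EXOC6, a count that leaves out the SEC22 genes. SEC23IP, a SEC23 partner, differed by 0.20 ± 0.11 (SD over 3 probe sets).

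The cargo adaptors SEC24A and SEC24B, which are close relatives, differed by -0.05 ± 0.21 (SD over 3 probe sets) and -0.34 ± 0.16 (SD over 2 probe sets), and their probe sets overlapped. In the other related pair, SEC24C had 5.81 in anti-miR cells and 5.50 in control cells, with 3 probe sets from 0.26 to 0.37. SEC24D had 5.10 in anti-miR cells and 5.18 in control cells (1 probe set), and with dim probe sets kept its difference was 0.10 in place of -0.08. The scaffold SEC16A had 7.05 in anti-miR cells and 7.26 in control cells, and SEC16B 5.56 in anti-miR cells and 5.45 in control cells.

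**Figure D2:**
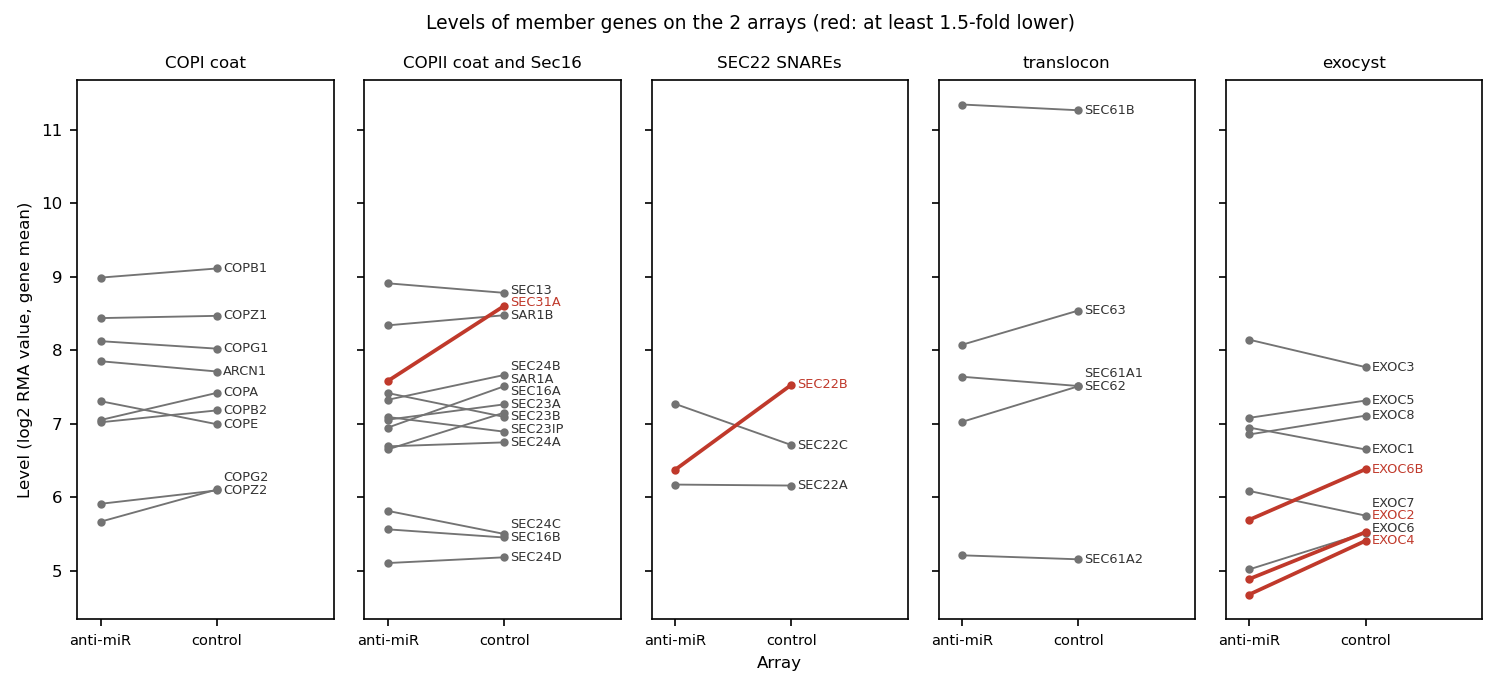
Gene level (log2 RMA value, y axis) of the 39 protein-coding members on the arrays of anti-miR cells (left) and control cells (right), a panel for each complex; red lines are the 5 genes at least 1.5-fold lower. Levels compare arrays for one gene and not genes with each other, and the steepest downward lines from control to anti-miR are SEC22B and SEC31A.

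SEC22 proteins are SNAREs or SNARE-like proteins of the ER and Golgi. SEC22B, the SNARE of ER to Golgi transport, had 6.37 in anti-miR cells and 7.53 in control cells, 2.23-fold lower. It ranked 586 from the lowest of 11272 genes and rests on 1 probe set. RefSeq lists pseudogene copies of SEC22B on the same chromosome, and whether the probe set also reads them was not tested. SEC22C had 7.27 in anti-miR cells and 6.71 in control cells, 1.48-fold higher, the highest difference of any member. Its probe sets differed by 0.09, 0.75 and 0.84, so 2 of the 3 passed 1.5-fold, and the median over them, or the probe set with the highest level, passed it too. SEC22A had 6.17 in anti-miR cells and 6.16 in control cells, with its probe sets on both sides of 0. SEC22B and SEC22C thus lay at opposite ends of all members.

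The translocon split into 2 parts by value. The channel subunits SEC61A1, SEC61A2 and SEC61B differed by 0.13 ± 0.07 (SD over 3 probe sets), 0.05 ± 0.02 (SD over 2 probe sets) and 0.08 (1 probe set), at or below the median gene, and all 3 lay below 0 after centring on it. SEC61B had 11.34 in anti-miR cells and 11.26 in control cells. No probe set with SEC61G as its single symbol was in the annotation used here. SEC62 and SEC63, membrane proteins that help post-translational import, SEC63 by recruiting the chaperone BiP, both lay below 0 and within 1.5-fold. SEC63 had 8.07 in anti-miR cells and 8.54 in control cells, a difference of -0.47 ± 0.07 (SD over 2 probe sets). SEC62 had 7.02 in anti-miR cells and 7.51 in control cells, a difference of -0.49 ± 0.36 (SD over 9 probe sets).

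All 9 probe sets of SEC62 lay below 0, with a gap among their differences. Of these, 4 sets differed by -0.998 to -0.66, at 4.89 to 6.56 in anti-miR cells and 5.88 to 7.37 in control cells. The other 5, at 6.85 to 9.33 in anti-miR cells and 6.98 to 9.65 in control cells, differed by -0.32 to -0.08. In control cells the levels of these groups of sets overlap. The size of the SEC62 difference therefore depends on the probe set read. The 3 sets above every nonspecific control on both arrays differed by -0.32, -0.22 and -0.08.

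The exocyst tethers vesicles through 2 linked subcomplexes, EXOC1 to EXOC4 and EXOC5 to EXOC8. Of 12 exocyst genes on the array 9 were measured, with a median of -0.26 (0.02 with the filter at the 75th percentile, where 6 genes were left). Of the 9, 3 were at least 1.5-fold lower and none higher, against 14.2% and 8.23% of all genes. All 3 span more than 100 kb, a length at which 47.6% of all genes were lower. EXOC4, a subunit of the first subcomplex, had 4.68 in anti-miR cells and 5.41 in control cells, 1.66-fold lower. Its 3 retained probe sets differed by -0.73 ± 0.35 (SD), their median of -0.55 fell short of the threshold, and the 2 dim ones lay below 0 too. The retained sets at -0.55 and -0.50 reached the array median in control cells alone. EXOC2, which binds the GTPase RAL, had 4.89 in anti-miR cells and 5.52 in control cells, 1.56-fold lower, with probe sets at -0.78 and -0.49. The set at -0.49 likewise reached the array median in control cells alone. With dim probe sets kept, EXOC2 differed by -0.42, short of the threshold.

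EXOC1 and EXOC3, of the same subcomplex, were on the other side of 0. EXOC1 had 6.95 in anti-miR cells and 6.65 in control cells, with its 3 probe sets between 0.27 and 0.31. EXOC3 had 8.14 in anti-miR cells and 7.77 in control cells (1 probe set). EXOC3-AS1, an antisense RNA next to EXOC3, had 5.32 in anti-miR cells and 4.88 in control cells, and the kit's reading of strand was not checked.

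In the second subcomplex, EXOC5, its core subunit, had 7.08 in anti-miR cells and 7.31 in control cells, with 4 probe sets from -0.58 to -0.07. EXOC6, which binds RAB11, had 5.02 in anti-miR cells and 5.52 in control cells. Its paralogue EXOC6B had 5.69 in anti-miR cells and 6.38 in control cells, 1.61-fold lower (1 of 3 probe sets above the filter). With the dim sets kept EXOC6B differed by -0.27. EXOC7, which binds membrane phosphoinositides, had 6.09 in anti-miR cells and 5.75 in control cells, with 4 probe sets from 0.10 to 0.47. EXOC8, another RAL-binding subunit, had 6.85 in anti-miR cells and 7.11 in control cells. Subunits of both subcomplexes thus lay on both sides of 0. The paralogues EXOC3L1, EXOC3L2 and EXOC3L4 stayed below the filter, at 2.93 to 4.39 in anti-miR cells and 2.95 to 4.13 in control cells.

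No detection call came with the values. The nonspecific control probe sets, which match no human transcript, reached 7.16 in anti-miR cells and 6.87 in control cells at the highest of 23, and 5.14 in anti-miR cells and 4.81 in control cells at the next. Of the 5 lower members, SEC31A alone had a retained probe set above all of them on both arrays. SEC22B lay above the highest in control cells and above the next highest alone in anti-miR cells. EXOC2 and EXOC4 lay below the next highest in anti-miR cells by their gene level, which leaves the size of each fold inexact. The same holds for NBAS, SNAP23, PARD3 and RALGPS2 among the partner genes named below.

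Gene length moved with the differences. Genomic span and difference had a Spearman rho of -0.49 across the 40 members and -0.49 across 11263 genes with a length. These points share the same pair of arrays and are not independent. The 7 members of 100 kb or more, COPG2, SEC24B, SEC24D, EXOC2, EXOC4, EXOC6 and EXOC6B, all lay below 0, with a median of -0.50, and 3 were at least 1.5-fold lower. SEC24D, at -0.08 on 1 retained probe set, lay at 0.10 with dim probe sets kept. Among all 1806 genes of 100 kb or more the median was -0.53, 77.1% lay below 0 and 47.6% were at least 1.5-fold lower. EXOC4 and EXOC6B, with spans of 847.9 and 650.1 kb, are the longest members. The 10 members under 25 kb had a median of 0.13, against 0.25 for all 5296 such genes, and none was past 1.5-fold. Of those 5296 genes, 677 were at least 1.5-fold higher and 147 (2.78%) at least 1.5-fold lower. SEC22B, with 25.6 kb, lay in the class of 25 to 50 kb, where 8.93% of 2328 genes were at least 1.5-fold lower. SEC31A spans 82.1 kb, and 20.9% of 1833 genes from 50 to 100 kb were lower. The part of gene length in these differences was not tested.

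**Figure D3:**
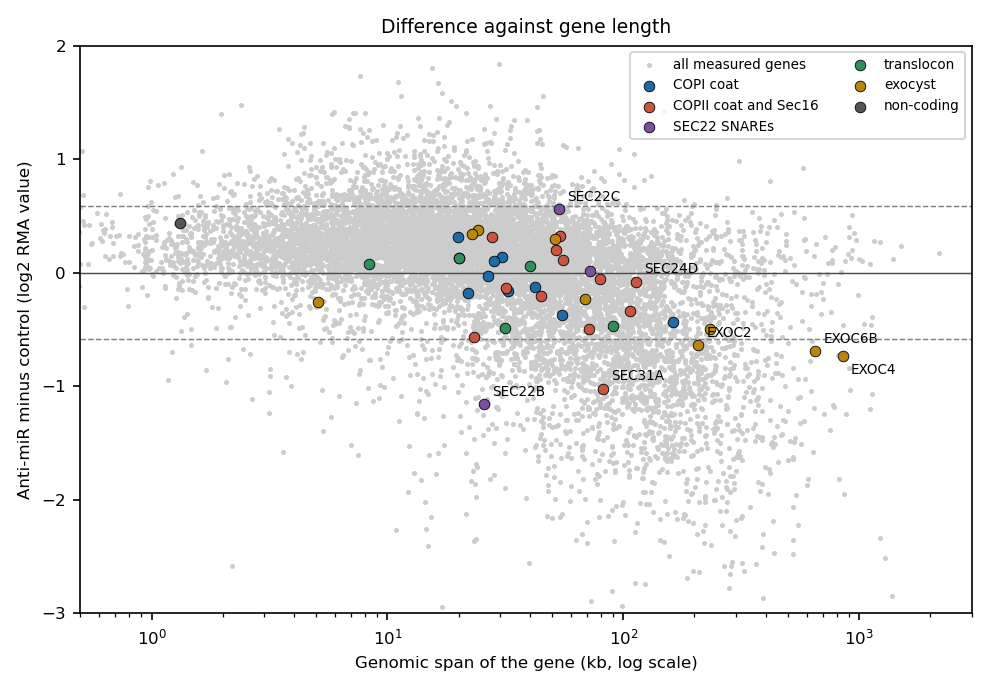
Anti-miR minus control difference (log2, y axis) against genomic span (kb, log x axis), with measured members coloured by complex and all measured genes in grey (64 lie beyond the axes); dashed lines mark 1.5-fold. The exocyst genes EXOC2, EXOC4 and EXOC6B sit among other long genes, while SEC22B lies below most genes of its length.

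Promoter sequence was read for what the members share apart from their names. The RefSeq promoter table (GRCh38.p14, 250 bases before to 50 after the start) held 40 of the 44 members. The letters TGACGTGG, a site known to be bound by factors of the ER stress and secretory response such as XBP1, ATF6 and the CREB3L family, were searched on both strands. They occurred in 8 of 40 member promoters (20.0%), against 0.795% of 27303 promoters and 0.884% of 9281 promoters of genes measured here. The shorter ACGTG, which is contained in it, occurred in 55.0% of member promoters, against 21.6% of all promoters and 26.7% of those of measured genes. The ER stress element, CCAAT and CCACG separated by 9 bases, was in none of the 40, and in 0.0806% of all promoters. A match is a description of letters, not a bound site. The windows are shown because these letters were more common in the members' promoters than in others. Each is printed so that the letters read in one direction, with the match in capitals.
COPA, chr1:160343227-160343256, minus strand: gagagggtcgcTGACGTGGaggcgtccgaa
COPB1, chr11:14499841-14499870, plus strand: gagtccttggcTGACGTGGaagggggtggg
COPB2, chr3:139389825-139389854, plus strand: actaagggccgTGACGTGGtgccgctgagc
COPB2, chr3:139389632-139389661, plus strand: gtcagactgacTGACGTGGaacttccggga
SEC16A, chr9:136484707-136484736, plus strand: ttcagtccggcTGACGTGGcaccagggcca
SEC16B, chr1:177984297-177984326, minus strand: ttctgggcagcTGACGTGGcaacacagttt
SEC23A, chr14:39103221-39103250, minus strand: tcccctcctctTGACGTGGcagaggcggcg
SEC24A, chr5:134648595-134648624, plus strand: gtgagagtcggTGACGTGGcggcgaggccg
SEC62, chr3:169966779-169966808, minus strand: ccggttccctcTGACGTGGagcgaggaggg

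The 8 genes with these letters are 3 of the COPI coat, 4 of the COPII group and SEC62, and none is an exocyst gene. Of the 8, 7 lay below 0, with SEC16B at 0.11 the exception, against 14 of 29 other measured members with a promoter and 39 of all 82 measured genes with these letters. None of the 8 passed 1.5-fold in the gene means, but SEC23A and SEC62 did after centring on the median gene. Their median was -0.19, against 0.01 for those 29. Their median gene length was 49.6 kb, against 31.7 kb for the others, and its part in the result was not tested. Among all 82 measured genes with these letters the median was 0.0077, against 0.13 for those without, and 14.6% were at least 1.5-fold lower, against 14.8%. CREB3L2, a factor of the CREB3L family, was 2.27-fold lower (7.45 in anti-miR cells and 8.63 in control cells, 1 probe set). XBP1, ATF6 and the other CREB3L factors were in none of the lists read here, so no value is given for them. No relation between CREB3L2 or any other such factor and these members was tested.

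Partners of the complexes were read from 5 lists of named genes. The COPII regulators and ER export receptors had a median of -0.26, with 5 of 16 measured genes at least 1.5-fold lower and none higher, against 14.2% and 8.23% of all genes. LMAN1, a lectin that carries glycoproteins out of the ER, had 5.60 in anti-miR cells and 7.49 in control cells, 3.71-fold lower, with 5 probe sets from -2.35 to -0.40. ERGIC1, of the ER to Golgi compartment, was 1.72-fold lower with 3 probe sets between -0.82 and -0.74. CREB3L2 was the third of the named genes.

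The COPI regulators and cargo centred on a median of -0.02. Of 21 genes, 3 passed 1.5-fold upwards and 2 downwards, against 8.23% and 14.2% of all genes. ARFGEF1, which loads ARF GTPases at the Golgi, had 5.56 in anti-miR cells and 7.32 in control cells, 3.39-fold lower (difference -1.76 ± 0.25, SD over 2 probe sets). KDELR1, a receptor that returns ER residents in COPI vesicles, had 6.39 in anti-miR cells and 7.46 in control cells, 2.10-fold lower. TMED1, a cargo receptor of the p24 family, was 2.09-fold higher (1 probe set). The ER to Golgi tethers and SNAREs had a median of 0.03, with 5 of 30 higher and 6 lower, against the same shares. TRAPPC8, a subunit of the TRAPP tether, was 3.30-fold lower (difference -1.72 ± 0.13, SD over 3 probe sets). YKT6, a lipid-anchored SNARE, differed most in 1 of its 3 probe sets (range -2.14 to -0.71, mean 2.36-fold lower), and NBAS, a tether subunit for COPI vesicles at the ER, was 2.26-fold lower.

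The translocon partners had a median of 0.11, with 2 of 33 higher and 4 lower, against 8.23% and 14.2% of all genes. DNAJB9, an ER co-chaperone, had 7.11 in anti-miR cells and 6.18 in control cells, 1.91-fold higher. SRPRB, a subunit of the receptor for the signal recognition particle, had 8.31 in anti-miR cells and 7.47 in control cells, 1.79-fold higher. TRAM2, a translocon-associated protein, was 1.92-fold lower. HSPA5, the BiP chaperone that SEC63 recruits, was 1.65-fold lower (6 probe sets, -1.06 to -0.36). It was named after its values were seen.

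The exocyst regulators had a median of -0.15, with 6 of 21 lower and none higher, against 14.2% and 8.23% of all genes. SNAP23, a SNARE of the plasma membrane, had 4.79 in anti-miR cells and 6.08 in control cells, 2.45-fold lower (difference -1.29 ± 0.33, SD over 5 probe sets). RALGPS2, an activator of RAL, had 3.31 in anti-miR cells and 4.80 in control cells (1 probe set). Its anti-miR level is below the array median, so it passed the filter through control cells alone. PARD3, a polarity scaffold, averaged 2.38-fold lower, but its probe sets lay at -2.50 and -0.00070. Its mean level in anti-miR cells, 4.43, was below the array median, so at least 1 of these sets passed through control cells alone. Lower and higher genes thus stood side by side in 3 of the 5 lists, while the COPII and exocyst regulator lists held lower genes alone past 1.5-fold. The median gene length was 38.6 kb for the COPII regulators and 48.7 kb for the exocyst regulators, against 17.0 to 30.9 kb for the other lists. Of the lower genes named, ARFGEF1, CREB3L2, ERGIC1, NBAS, TRAPPC8, PARD3 and RALGPS2 each span more than 100 kb. At that length 47.6% of all genes were at least 1.5-fold lower. SNAP23, LMAN1, KDELR1, YKT6, TRAM2 and HSPA5 are shorter. Neither the difference between lists nor the part of length in it was tested.

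**Figure D4:**
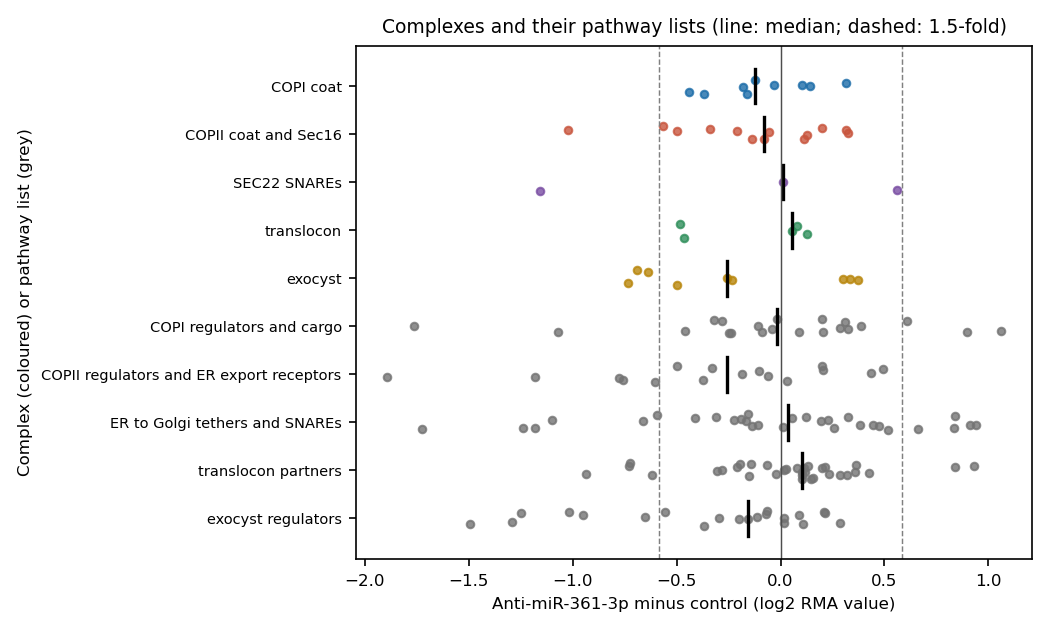
Anti-miR minus control difference (log2, x axis) of each measured gene in the 5 complexes (coloured) and the 5 partner lists (grey), with the median as a vertical line and dashed lines at 1.5-fold. The lowest point is LMAN1 (-1.89) and the highest TMED1 (1.06), both in partner lists, and SEC22B (-1.16) is the lowest among the complexes.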

How the data were processed

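The authors deposited 1 log2 value for each probe set and array. RMA is the method that the submitters' processing notes name, which corrects background, equalises array distributions and summarises probes. Its version, and which arrays it was run on together, are not given in the sources here. Of 49386 probe sets, 93 were array controls. The platform annotation gave 45259 probe sets 1 symbol and 1327 several, and 2800 none. Symbols were updated by Entrez ID through RefSeq, which matched 45172 non-control probe sets and all 126 of the members. The files name no genome build, and only RefSeq sequences carry coordinates.

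From these values, probe sets at or above the array median on at least 1 array were averaged per gene, and differences and 1.5-fold counts were taken. With 1 array per group there is no test, and precision is limited by the number of arrays. Pooled over 6263 genes, the SD over probe sets was 0.29. Every measured member was named, with the 3 largest differences of each partner list among genes whose probe sets all went 1 way. Members and lists were chosen with earlier results of these data known. Promoters came from RefSeq (GRCh38.p14), which held 40 of 44 members. The alternatives were other filters, gene summaries, centrings (lowess fraction 0.3) and probe set types, and a 2-fold threshold. Code was tested on simulated data. Tools were matplotlib 3.10.9, statsmodels 0.14.6, scipy 1.17.1, pandas 2.3.3 and numpy 2.4.6 under Python 3.11.15.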

Additional observations from a re-analysis of the deposited data

Results flagged for a closer look

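A signal above its control level was found among the 32 probe sets of these genes that the gene values did not use, because they were dim or carry several symbols. A dim probe set of EXOC7 had 4.36 in anti-miR cells and 3.65 in control cells, a difference of 0.71. It was the 1 of 32 at least 1.5-fold higher, and 2 were at least 1.5-fold lower, the lowest a dim EXOC4 set at -0.89. Only higher sets were flagged, and the share among all unused probe sets was not taken. Both levels of the EXOC7 set lie below the array medians, so it is not shown to be above background.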

How the results depend on the processing

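No array could be left out. No paired analysis was possible because there is 1 sample in each group. A median counted as moved if it changed by more than the pooled probe set SD over the square root of the number of genes. The setting with only probe sets above the nonspecific controls on both arrays was chosen after seeing the data. Against 5 members lower, there were 3 with no filter (6.82% of members, against 7.37% of all genes). The highest probe set gave 8 (20.0%, against 14.5%). Either centring gave 10 (25.0% of members, against 17.3% and 16.8% of all genes). There were 2 at 2-fold (5%, against 6.98%) and 2 above the nonspecific controls (SEC23A and SEC31A, 7.41%, against 10.9%). Counts close to 5 held other genes. The median of probe sets again gave 5 (12.5% of members, against 14.2% of all genes), without EXOC4 and with SEC23A. The 75th percentile filter gave 4, EXOC4, SEC22B, SEC23A and SEC31A (12.9%, against 18.8%). Plain _at probe sets gave 4, EXOC6B, SEC22B, SEC23A and SEC62 (25.0%, against 14.9%). Against 0 higher, there was 1, SEC22C, with the 75th percentile filter, the highest probe set, the median of probe sets and above the nonspecific controls. In these settings, in the same order, 12.2%, 9.56%, 8.44% and 10.4% of all genes were higher.

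With no filter the medians were 0.0097 for COPII, -0.12 for the exocyst, -0.025 for all members, -0.14 for COPII regulators and 0.12 for tethers and SNAREs. With the 75th percentile filter they were 0.018 for the exocyst, -0.11 for the translocon, -0.10 for COPII regulators and 0.050 for COPI regulators. With the highest probe set they were -0.37 for the exocyst, 0.049 for COPI regulators and -0.091 for exocyst regulators. Centring on the median gave -0.25 for COPI, -0.21 for COPII, -0.39 for the exocyst, -0.076 for the translocon, -0.23 for all members, -0.15 for COPI regulators, -0.39 for COPII regulators, -0.096 for tethers and SNAREs, -0.28 for exocyst regulators and -0.025 for translocon partners. The lowess trend gave -0.25 for COPI, -0.20 for COPII, -0.36 for the exocyst, -0.23 for all members, -0.11 for COPI regulators, -0.36 for COPII regulators, -0.077 for tethers and SNAREs, -0.27 for exocyst regulators and -0.021 for translocon partners. Plain _at probe sets left 16 members and gave 0.18 for COPII, -0.57 for SEC22, -0.26 for all members, -0.46 for the exocyst, -0.67 for the translocon, -0.14 for COPI regulators, -0.76 for COPII regulators, -0.0099 for exocyst regulators and -0.33 for translocon partners. Above the nonspecific controls 27 members were left, with 0.75 for SEC22 (1 gene), -0.031 for all members, 0.34 for the exocyst (4 genes), 0.049 for COPI regulators and 0.23 for tethers and SNAREs. Fewer genes were tested under these filters, and the cause of the other changes was not tested. Over all genes, 499 were higher after centring on the median and 547 after the lowess trend, against 928. The 5 lower members stayed below 0 wherever they had a value. EXOC2 and EXOC6B had none with the 75th percentile filter, EXOC2 and SEC31A none with plain _at probe sets, and SEC31A alone had one above the nonspecific controls.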

Other observations

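A probe set annotated to both SEC31B and NDUFB8 had 10.9 in anti-miR cells and 10.7 in control cells, and one annotated to COPE and HOMER3 had 5.73 in anti-miR cells and 5.47 in control cells. Neither gene of a pair can be named from such a probe set, and neither value entered the comparisons.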
